A study of Mus musculus with 8 samples.

Results

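The core clock loop was followed through 10 genes: the activators Arntl (also called Bmal1), Clock and Npas2, the repressors Per1, Per2, Per3, Cry1 and Cry2, and the Rev-erb receptors Nr1d1 and Nr1d2. They were chosen by name as parts of the loop, though with earlier results of these data known. Each was read from the brightest array probe set (transcript cluster) paired with its symbol alone. Of the 10, 9 had such a cluster, each a single one, and Npas2 was not analysed here. All 9 passed the filter on dim genes and so were among the 14950 genes tested, of 19933 with a cluster. Whole hearts came from 8 male C57BL/6 mice aged 6 weeks and fed normal chow, 4 wild type (WT) and 4 lacking the histone deacetylase HDAC3 (KO, written MCH3-KO in the series' design text). Total RNA of each heart was hybridised to an Affymetrix Mouse Gene 1.0 ST array, 1 array per mouse. All mice lived under a normal light and dark cycle, but the sources used here do not give the hour at which the hearts were taken. Nor do they give the promoter or Cre line behind the deletion, or which heart cells lost HDAC3.

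The molecular clock is a feedback loop in which ARNTL pairs with CLOCK or NPAS2 and switches on the Per, Cry and Rev-erb genes through DNA sites called E-boxes. PER and CRY proteins then shut their own activator down, while the Rev-erb receptors bind Rev-erb response elements (RREs) and repress Arntl, Clock, Npas2 and Cry1, with HDAC3 brought in by nuclear receptor corepressors as the enzyme that carries out the repression. A further branch works through D-boxes, which DBP, TEF and HLF activate and NFIL3 represses, and in the heart the clock is known for timing metabolism and ion channel expression. RNA of most of these genes rises and falls over the day, so hearts taken at different hours differ in them.

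Arntl and Clock stand on the RRE branch, and their promoter sequences are shown first because Arntl had the largest difference. Promoter windows of 300 bases (250 before and 50 after the transcript start, GRCm38.p6) came from RefSeq. They were found for 9 of the 10 genes, 13 windows in all. Npas2 had a window, but Per2 had none and was not searched for any motif. Capitals mark the motif in each stretch, which is written 5′ to 3′ on the strand of its gene. An extended RRE, a flank rich in A before the core, was added to the search after the sequences had been seen. The capitals of the Arntl stretches show its letters, with the base before the last left free. It occurred in 0.0609% of all 32851 windows and, among the clock genes, in Arntl alone, at 2 places. Its letters are those that the 2 Arntl sites share, so the match in Arntl was fixed by the choice. Its rarity in other windows is therefore no evidence about Arntl.
Arntl at chr7:113207491-113207520, plus strand: gattggtcggAAAGTAGGTTAgtggtgcga
Arntl at chr7:113207528-113207557, plus strand: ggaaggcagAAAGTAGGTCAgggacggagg
The RRE core AGGTCA on either strand, which overlaps the second Arntl site, lay in 16.3% of all windows and in those of Arntl, Clock, Nr1d2 and Per1. It was also present in the window of Nfil3, the D-box repressor whose RNA is described further on. Nfil3 was the only clock output factor searched, so its match cannot be set against the others.
Clock at chr5:76303604-76303633, minus strand: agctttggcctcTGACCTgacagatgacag
Nr1d2 at chr14:18239166-18239195, minus strand: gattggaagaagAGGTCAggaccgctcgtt
Nfil3 at chr13:52981046-52981075, minus strand: gcgacgtagcgcggcgctcggaacTGACCT
The paired form of the RRE, known as RevDR2, was in no window of these genes and in 0.00913% of all windows.

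The repressor arm is read through E-boxes and D-boxes. Per3, the other gene that changed, was the only one of the 9 genes with a window (all but Per2) to hold a D-box there. The D-box letters TTANNTAA occurred in 6% of all windows and at 2 places in that of Per3.
Per3 at chr4:151044806-151044885, minus strand: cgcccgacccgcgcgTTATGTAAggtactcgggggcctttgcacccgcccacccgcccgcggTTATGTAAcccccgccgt
The E-box CACGTG lay in 7.15% of all windows and in those of Per1 and Cry1, and the variant CACGTT in 4.68% and in those of Cry1, Cry2 and Nr1d1. On the opposite strand the variant reads AACGTG, and Per1 also holds an RRE core as TGACCT.
Per1 at chr11:69098771-69098820, plus strand: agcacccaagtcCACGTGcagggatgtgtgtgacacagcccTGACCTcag
Cry1 at chr10:85185089-85185148, minus strand: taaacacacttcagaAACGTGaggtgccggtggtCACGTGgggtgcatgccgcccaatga
Nr1d1 at chr11:98775388-98775417, minus strand: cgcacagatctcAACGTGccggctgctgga
The letters TGACG, the core of the element for cyclic AMP signals, lay in 20.8% of all windows and in those of Per1, Cry1 and Cry2. These matches are descriptions of short windows near the start site. They do not show binding, and sites in introns or far upstream were not searched.

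Median array intensity lay between 54.1 and 56.5. Hdac3 was 10.04 to 10.20 (log2 intensity) in the 4 WT hearts and 8.50 to 8.59 in the 4 KO hearts, so each array fitted its label. Macrophage markers differed between the groups: 20 of 20 were higher in KO, with a summed intensity of 4409 to 5147 in WT and 10369 to 12890 in KO. Of 11 cardiomyocyte markers 2 were lower and 0 higher, where 13.9% of all genes tested were lower and 10.8% higher. Their summed intensity was 86465 to 87431 in WT and 83415 to 84913 in KO. Lymphocyte markers were low (summed intensity 133 to 163 in WT, 137 to 144 in KO), with 0 of 3 tested past the threshold by limma. In RNA of a whole heart, fewer cells of a type and less RNA per cell cannot be told apart.

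WT replicate 2 was the WT heart most often at the edge of its group in the clock genes. It was the highest or the lowest of the 4 WT hearts for 8 of the 9 genes, against 61% of all genes tested. Replicate 3 was so for 6 of the 9, against 46%, and replicates 1 and 4 for 2 each, against 49% and 45%. These genes belong to the same loop, so the counts are not independent. Mural cell markers (smooth muscle and pericytes) were also highest in WT replicate 2, by 0.31 on average over 6 genes relative to the WT mean. Among WT hearts the same held for endothelial (0.17), fibroblast (0.13) and macrophage (0.12) markers. It also held for adipocyte (0.30, 2 genes tested) and lymphocyte (0.12, 3 genes tested) markers. Cardiomyocyte markers were at 0.01 and erythroid markers at -0.02 in that heart. The part of these cells in the results that follow was not tested. The clock genes and the counts of each list are therefore given with and without this heart.

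In KO hearts Arntl rose and Per3 fell, while Cry2 and the Rev-erb genes themselves differed by 0.03 to 0.10 log2 and did not pass the test. Clock was higher in KO than in 3 of the 4 WT hearts and did not pass, but did when WT replicate 2 was left out and in 5 alternatives with all 8 hearts. Per1, Per2 and Cry1 differed by 0.14 to 0.33 and did not pass. With limma and Benjamini-Hochberg adjustment over all genes, 2 of 9 clock genes passed the threshold of 0.05, Arntl upward and Per3 downward. Of all genes tested 24.6% did, 10.8% higher and 13.9% lower, so the share of clock genes that changed is close to the background. Leaving out WT replicate 2 gave 3 of 9, Arntl and Clock upward and Per3 downward, against 23.5% of all genes, 11.2% higher and 12.3% lower. That heart was singled out by its values in these same genes and lay at the KO level for Arntl and Clock. Leaving it out therefore favours a call of both, and the fits without it are not separate evidence for them. Differences are given as log2 KO minus log2 WT, from 4 hearts per group unless stated, a number of arrays that limits the precision.

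**Figure D1:**
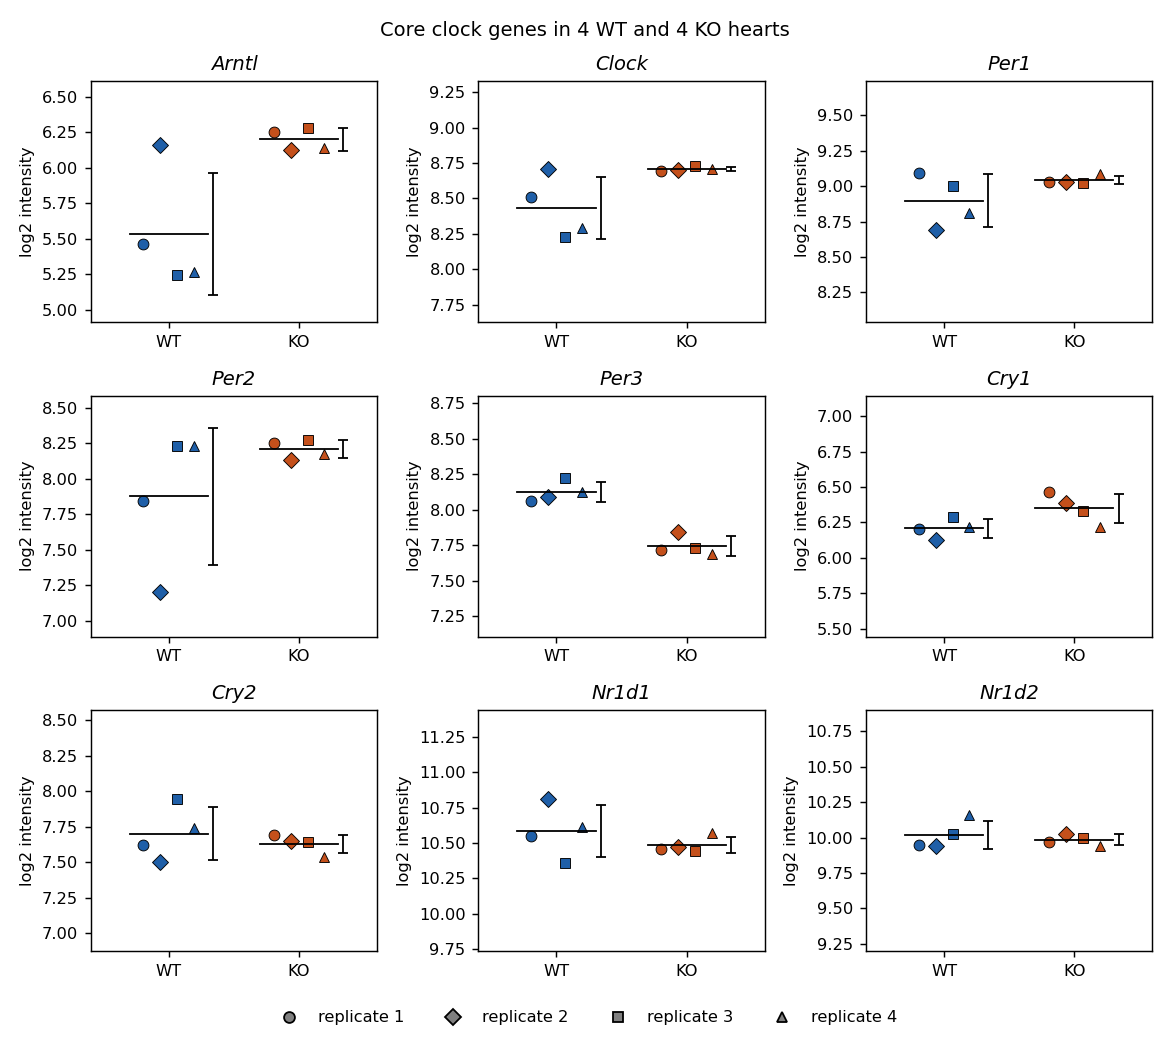
Log2 intensity (vertical axis) of the 9 clock genes in each WT and KO heart, 1 panel per gene with the same axis span. Symbols mark the replicate number, lines the group mean and bars the SD (n = 4). WT replicate 2 (blue diamond) lies at the KO level for Arntl and Clock and far below all other hearts for Per2, and Per3 is the only gene whose groups do not overlap.

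Arntl encodes the obligate partner of the activator complex and is the best known gene repressed by Rev-erb. It was 5.46, 6.16, 5.24 and 5.27 (log2 intensity) in WT replicates 1 to 4 and 6.25, 6.13, 6.28 and 6.14 in KO replicates 1 to 4. Apart from WT replicate 2, which was at the KO level, each WT heart was well below each KO heart. The mean went from 5.53 ± 0.43 to 6.20 ± 0.08 (SD, n = 4), a rise of 0.67 (SE 0.17, 95% interval 0.28 to 1.05, adjusted p = 0.0173 in limma), or 1.59-fold. Without WT replicate 2 the rise was 0.87 (SE 0.07, adjusted p = 4.07e-05), or 1.83-fold. Arntl was called in all 16 alternatives in which it was tested, with adjusted p from 4.07e-05 to 0.047.

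Clock encodes the histone acetyltransferase partner of ARNTL. WT replicates 1 to 4 had Clock at 8.51, 8.71, 8.23 and 8.29, and KO replicates 1 to 4 at 8.70, 8.70, 8.73 and 8.71. The KO hearts were almost level, and WT replicate 2 was among them while the other WT hearts were lower. The difference was 0.27 (SE 0.09, 95% interval 0.06 to 0.48) with an adjusted p of 0.0582 in limma. Without WT replicate 2 Clock rose by 0.36 (SE 0.07, adjusted p = 0.00512), or 1.29-fold. It passed in 6 of 17 alternatives, with adjusted p from 0.00512 to 0.139.

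**Figure D2:**
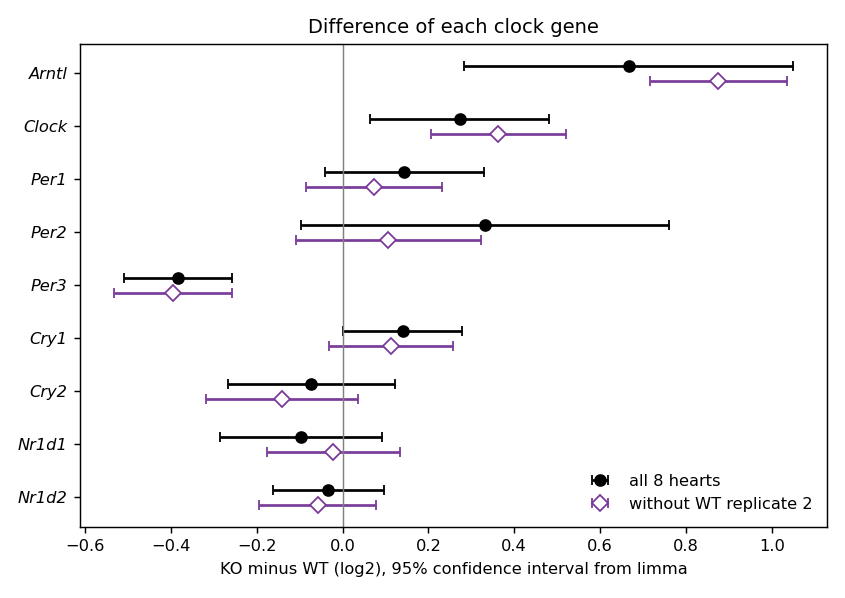
KO minus WT difference (log2, horizontal axis) of each clock gene with its 95% confidence interval from limma, for all 8 hearts (filled circles) and without WT replicate 2 (open diamonds, 3 WT and 4 KO hearts). The interval of Arntl narrows from 0.28 to 1.05 to 0.72 to 1.03, that of Per3 lies below 0 in both, and those of Cry2, Nr1d1 and Nr1d2 include 0 in both.

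The Period genes encode the proteins that, with the cryptochromes, inhibit ARNTL and CLOCK. Per3, the family member with the mildest known role in the core loop, was 8.06, 8.09, 8.22 and 8.13 in WT and 7.72, 7.84, 7.73 and 7.69 in KO replicates 1 to 4. The groups did not overlap for this gene, as for 28.6% of all genes tested (16.8% lower in KO and 11.7% higher). Per3 fell by 0.38 (SE 0.06, 95% interval -0.51 to -0.26, adjusted p = 0.000736 in limma), to 76.7% of the WT level. WT replicate 2 was in the middle of its group here, and without it the difference was -0.39 (adjusted p = 0.00163). Over 17 alternatives Per3 was called in each, with differences from -0.42 to -0.35.

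Per2, a rate-limiting repressor that glucocorticoids also induce, varied most among WT hearts. It was 7.84, 7.20, 8.23 and 8.23 in WT and 8.25, 8.14, 8.27 and 8.17 in KO replicates 1 to 4. WT replicates 3 and 4 were at the KO level, replicate 1 was lower and replicate 2 lowest of all. The difference of 0.33 (SE 0.19, 95% interval -0.10 to 0.76) did not pass (adjusted p = 0.254 in limma). It was 0.11 (SE 0.10, adjusted p = 0.483) without WT replicate 2.

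Per1, which responds to light-like and hormonal signals through a cyclic AMP element, was 9.09, 8.69, 9.0 and 8.81 in WT and 9.03, 9.03, 9.02 and 9.08 in KO hearts. KO hearts lay inside the WT range, near its upper end. The difference was 0.14 (SE 0.08, adjusted p = 0.252), and 0.07 (adjusted p = 0.514) without WT replicate 2.

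Among the cryptochromes, which bind and block the activator pair, Cry1 carries RREs in an intron and is a known Rev-erb target, whereas Cry2 is not. Cry1 was 6.21, 6.13, 6.29 and 6.22 in WT and 6.46, 6.38, 6.33 and 6.22 in KO replicates 1 to 4. KO replicate 4 lay within the WT range and the other KO hearts above it. The difference of 0.14 (SE 0.06, 95% interval 0.00206 to 0.28) did not pass after adjustment (adjusted p = 0.134 in limma), and passed in 2 of 17 alternatives: when arrays were weighted (adjusted p = 0.0362), and with KO replicate 4 left out (0.18, adjusted p = 0.0454). It was 0.11 (adjusted p = 0.256) without WT replicate 2. Cry2 was 7.62, 7.50, 7.94 and 7.74 in WT and 7.69, 7.65, 7.64 and 7.54 in KO hearts, with overlapping groups and a difference of -0.07 (SE 0.09, adjusted p = 0.613). Cry2 differed by -0.14 (adjusted p = 0.244) without WT replicate 2 and by 0.0081 (adjusted p = 0.954) without WT replicate 3, so no direction can be given for it.

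The Rev-erb genes encode the repressors that act through the HDAC3 corepressor. Nr1d1 was 10.55, 10.81, 10.36 and 10.61 in WT and 10.46, 10.48, 10.44 and 10.57 in KO replicates 1 to 4. All KO values lay within the WT range, whose top was again WT replicate 2. The difference was -0.10 (SE 0.09, 95% interval -0.29 to 0.09, adjusted p = 0.471 in limma), and -0.021 (SE 0.07, adjusted p = 0.873) without WT replicate 2. Nr1d2 was 9.95, 9.94, 10.03 and 10.16 in WT and 9.97, 10.03, 9.999 and 9.94 in KO hearts, and its difference was -0.03 (SE 0.06, 95% interval -0.16 to 0.10, adjusted p = 0.746). It was -0.058 (adjusted p = 0.557) without WT replicate 2 and 0.013 without WT replicate 4. These intervals bound a change of Nr1d1 or Nr1d2 but do not show that the levels were equal. Thra, the thyroid hormone receptor gene that lies on the opposite strand and overlaps the 3′ end of Nr1d1, fell by 0.31 (SE 0.05, adjusted p = 0.00141). The position of the array probes relative to the overlap was not checked.

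Related genes were compared with each other through their ratio within each array, which asks whether the paralogs responded alike. Of 5 pairs tested with a two-sided exact permutation test over 70 divisions of the hearts, whose smallest possible p is 0.0286, 3 reached that value (0.0476 after Benjamini-Hochberg adjustment over the 5 pairs). The log2 ratio of Per1 to Per3 rose by 0.53, from 0.77 ± 0.19 to 1.30 ± 0.09 (SD, n = 4), and that of Per2 to Per3 by 0.71, from -0.25 ± 0.45 to 0.46 ± 0.12 (exact permutation test, p = 0.0286 for each). The groups did not overlap in either ratio. Both ratios contain Per3, whose own groups did not overlap, so they are not separate results. The Cry1 to Cry2 ratio rose by 0.21 (exact p = 0.0286), from -1.49 ± 0.13 to -1.28 ± 0.04. With quantile normalisation the adjusted p was 0.0714 for both Per ratios and 0.0952 for the cryptochromes, and without any single KO heart it was 0.0952 for each of the 3. These 3 ratios rose by 0.47, 0.50 and 0.25 without WT replicate 2. The Per1 to Per2 ratio differed by -0.19 (exact p = 0.4, adjusted 0.5; -0.033 without WT replicate 2) and Nr1d1 to Nr1d2 by -0.06 (exact p = 0.657). The latter ratio was 0.037 without WT replicate 2 (exact p = 0.743), so no direction can be given for it.

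The hearts can also be set side by side. In WT replicate 2 Arntl was above the WT mean by 0.63 and Clock by 0.27, and so was the E-box gene Nr1d1, by 0.23. Per2 (deviation -0.67), Per1 (-0.21) and Cry2 (-0.20) were below it in the same heart. In the KO hearts Arntl (0.60 to 0.75) and Per2 (0.26 to 0.39) were both above the WT mean. Arntl, Clock and Cry1, named above as repressed by Rev-erb, were averaged together. Nr1d2 and Per1, whose windows also held the RRE core, were left among the other 6 genes, as was Nr1d1. For the average of Arntl, Clock and Cry1, the deviation from the mean of the 4 WT hearts was 0.30 to 0.41 in KO hearts. It was 0.27 in WT replicate 2 and -0.14 to 0.00219 in the other WT hearts. A mean that holds WT replicate 2 shifts the other hearts away from it. Against the mean of WT replicates 1, 3 and 4 alone, the average was 0.39 to 0.50 in KO hearts, 0.36 in WT replicate 2, and 0.09, -0.05 and -0.04 in WT replicates 1, 3 and 4. Over the other 6 genes, against the same 3 hearts, it was -0.09 to -0.06 in KO hearts, -0.22 in WT replicate 2 and -0.07 to 0.04 in the other WT hearts. These averages describe the hearts and were not tested.

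**Figure D3:**
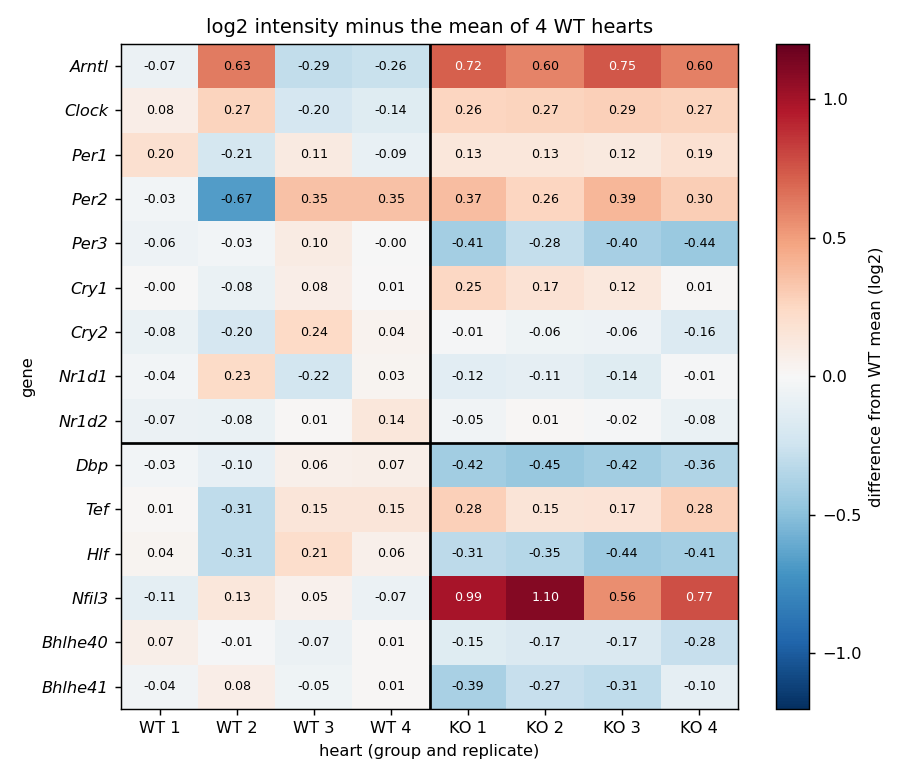
Log2 intensity of each gene minus its mean over the 4 WT hearts, as colour and printed value, for the 9 clock genes (above the line) and 6 clock output factors (below it), with 1 column per heart. WT 2 has Arntl at 0.63 and Per2 at -0.67. The 4 KO columns have Arntl at 0.60 to 0.75 and Per3 at -0.44 to -0.28, and differ most from each other for Nfil3 (0.56 to 1.10).

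For most of the clock genes the spread between hearts was larger in WT than in KO. The SD of Per2 was 0.48 in WT and 0.06 in KO, that of Arntl 0.43 and 0.08, that of Clock 0.22 and 0.01 and that of Per1 0.19 and 0.03. For comparison, the median SD of all genes tested was 0.09 in WT and 0.09 in KO. WT hearts had the larger SD for 8 of the 9 clock genes, against 54.2% of all genes, and an SD at least 2 times that of KO for 7 of 9, against 19.4%. As large an SD in WT as that of Per2 was seen for 0.415% of genes, and as that of Arntl for 0.615%. Those shares were 4.46% and 24.7% without WT replicate 2. Per3, counted among the 8 genes, had almost the same SD in both groups (0.0698 in WT and 0.0695 in KO). Cry1 was the exception with the larger SD in KO (0.10 against 0.07). Without WT replicate 2 the WT SD fell to 0.22 for Per2, 0.12 for Arntl, 0.15 for Clock and 0.15 for Per1, and WT hearts had the larger SD for 8 of 9 genes, against 43.5% of all genes. The spreads are a description of 4 hearts per group and were not tested.

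**Figure D4:**
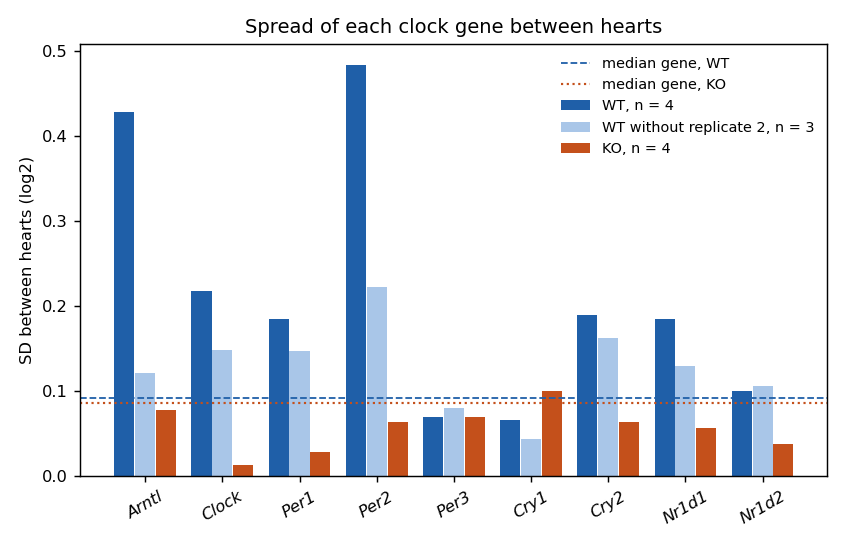
SD between hearts (log2, vertical axis from 0) of each clock gene in WT (dark blue, n = 4), in WT without replicate 2 (light blue, n = 3) and in KO (orange, n = 4), with the median SD of all genes as dashed (WT) and dotted (KO) lines. The WT bars of Per2 (0.48) and Arntl (0.43) are the tallest and shrink without replicate 2, while the KO bars of all genes except Cry1 lie below the median gene.

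Hormone-responsive genes were examined beside the Period genes, since glucocorticoids induce Per1 and Per2. In a list of 10 glucocorticoid response genes, 3 of 9 tested were higher in KO and 0 lower, with a median of 0.36, where 10.8% of all genes were higher and 13.9% lower. The counts were again 3 and 0 without WT replicate 2, with a median of 0.27, against 11.2% and 12.3% of all genes. Fkbp5, a chaperone that the receptor itself induces, was 7.12, 6.10, 8.02 and 7.70 in WT and 8.48, 8.42, 8.56 and 7.98 in KO replicates 1 to 4. It was lowest in WT replicate 2, as Per2 was, and highest among WT hearts in replicate 3. Its rise was 1.13 (SE 0.34, adjusted p = 0.0357), and 0.75 (adjusted p = 0.0274) without WT replicate 2. Across 17 alternatives its adjusted p ran from 0.0119 to 0.106, and it was 0.0805, 0.0844, 0.0784 and 0.0854 without WT replicate 1 and KO replicates 1, 2 and 3. The stress gene Ddit4 rose by 0.87 (SE 0.18) and the kinase gene Sgk1 by 0.24 (SE 0.06), the latter with an adjusted p of 0.0539 when WT replicate 3 was left out. Averaged over the 9 genes and taken against the mean of WT replicates 1, 3 and 4, the deviation was -0.42 in WT replicate 2, -0.12, 0.08 and 0.04 in those 3 hearts, and 0.16 to 0.49 in KO hearts. The genes did not all go this way. Among WT hearts, replicate 2 was lowest for Zbtb16 (9.16 against 10.22 to 11.26), Fkbp5, Tsc22d3, Klf9 and Ddit4. It was highest for Dusp1 (11.02 against 10.45 to 10.50), Sgk1 (7.89 against 7.71 to 7.82) and Angptl4 (6.63 against 5.99 to 6.54). Zbtb16, Tsc22d3, Klf9, Dusp1 and Angptl4 were named after their values were seen. The part of the glucocorticoid response genes in the clock gene values was not tested.

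The factors that carry the clock's signal onward were read next. Of 6 clock output factors 1 was higher and 4 were lower, where 10.8% of all genes were higher and 13.9% lower. The median of the list was -0.23 against -0.01 over all genes. Its counts were the same without WT replicate 2 (median -0.22), against 11.2% and 12.3% of all genes. Nfil3, the D-box repressor and itself a Rev-erb target, rose by 0.86 (SE 0.11, adjusted p = 0.000313), from 5.99 to 6.24 across WT hearts to 6.67 to 7.21 across KO hearts. The D-box activators Dbp and Hlf fell by 0.41 (SE 0.05, adjusted p = 0.000322) and 0.38 (SE 0.10, adjusted p = 0.0168), and Bhlhe41, an E-box repressor, by 0.27 (SE 0.07, adjusted p = 0.0138). The remaining factors, named after their values were seen, were Bhlhe40, which also fell (-0.19), and the D-box activator Tef (0.22, adjusted p = 0.126, and 0.12 without WT replicate 2). Tef was lower in WT replicate 2 (7.97) than in any other heart, as Per2 was.

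Of 26 clock regulators, the kinases, ubiquitin ligases and nuclear receptors that tune the loop, 23 were tested. Among them 1 was higher and 1 lower, where 10.8% of all genes were higher and 13.9% lower. The median of the list was 0.05. The receptor gene Rorb differed by -0.41 (SE 0.11, adjusted p = 0.0207), at a level just above the filter of 4.50 in KO hearts (4.62 to 4.66), and its adjusted p was 0.0509 or 0.0513 with WT replicate 1 or 2 left out and 0.0525 with KO replicate 2 left out. Csnk1e, a kinase that marks PER proteins for breakdown, differed by 0.18 (SE 0.06, adjusted p = 0.0382), and passed in 8 of 17 alternatives; leaving out WT replicate 1, 2 or 4 or KO replicate 1, 2 or 3 ended its call (adjusted p 0.0612 to 0.107). Without WT replicate 2 the list held 0 higher and 1 lower by limma, against 11.2% and 12.3% of all genes. The lower gene was that of the ubiquitin ligase Siah2 (-0.22, adjusted p = 0.0412 in limma), named after its values were seen. Rora, the main activator at RREs, differed by 0.11 (adjusted p = 0.486; 0.05 without WT replicate 2), and Ciart, a repressor of the activator pair, by 0.43 (SE 0.22, adjusted p = 0.2). Both were named after their values were seen, and Ciart too was lowest in WT replicate 2 (7.67, against 8.55 to 8.89 in the other WT hearts). Without that heart it differed by 0.16.

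In the corepressor complex that Rev-erb uses, 4 of 6 genes were tested. Of these, 2 were higher and 1, the deleted gene Hdac3, was lower, against 10.8% and 13.9% of all genes. Beside Hdac3, which fell by 1.54 (SE 0.05), Tbl1xr1 rose by 0.53 (SE 0.05, adjusted p = 7.89e-05) and Tbl1x by 0.32 (SE 0.06, adjusted p = 0.00455), both exchange factors of the complex. These 3 calls held without WT replicate 2, where 11.2% of all genes were higher and 12.3% lower. Heme is the ligand that Rev-erb needs for repression. Its rate-limiting enzyme gene Alas1, a known clock output, rose by 0.32 (SE 0.05, adjusted p = 0.00164), while Urod (-0.20), Fech (-0.26) and Alad (-0.19) of the same pathway fell. The call of Alad was lost without WT replicate 1 or 4 or KO replicate 3 or 4 (adjusted p 0.0613 to 0.0829). In all, 1 of 7 heme synthesis genes was higher and 3 were lower, with a median of -0.19, against 10.8% and 13.9% of all genes. The counts were the same without WT replicate 2, against 11.2% and 12.3%.

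Genes known to cycle in the heart took both directions: of 13 listed, 11 were tested, with 3 higher and 3 lower and a median of 0.18. Of all genes 10.8% were higher and 13.9% lower. The list again had 3 and 3 without WT replicate 2, against 11.2% and 12.3% of all genes. Kcnip2, a potassium channel subunit under clock control, fell by 1.74 (SE 0.07) and the channel gene Kcnh2 by 1.31 (SE 0.09), while Tcap, of the muscle Z-disc, rose by 0.46 (SE 0.08) and Ucp3, a mitochondrial uncoupling protein, by 0.97 (SE 0.11). Wee1, a cell cycle kinase gene driven through E-boxes and named after its values were seen, rose by 0.65 (SE 0.17, adjusted p = 0.0191), and by 0.49 (adjusted p = 0.0285) without WT replicate 2. Its WT values of 8.32, 7.97, 8.96 and 8.54 in replicates 1 to 4 put replicate 2 lowest and replicate 3 highest, as for Fkbp5.

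**Figure D5:**
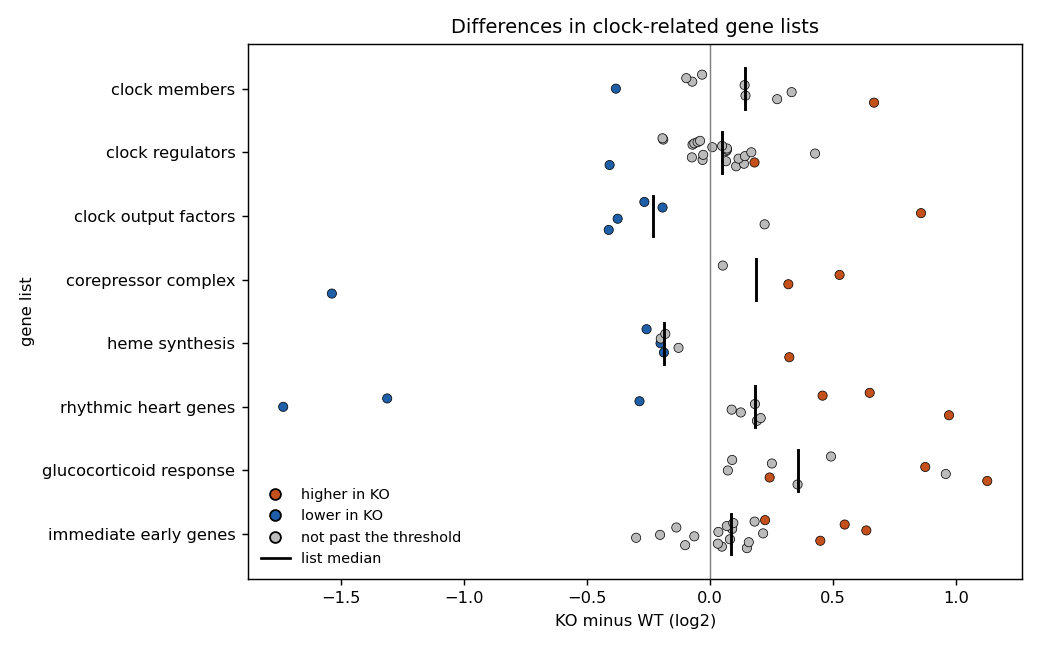
KO minus WT difference (log2, horizontal axis) of each tested gene in 8 clock-related lists, with 1 point per gene, coloured by direction where the adjusted p was under 0.05 and grey otherwise, and a line at the list median. The clock genes show 1 higher (Arntl, 0.67) and 1 lower (Per3, -0.38), the output factors 4 lower and 1 higher (Nfil3, 0.86), and Kcnip2 (-1.74) and Hdac3 (-1.54) lie farthest to the left.

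Patterns most like those of Arntl and Per3, the clock genes with the largest absolute differences, were sought over all genes by the root mean square distance between 8-array profiles, each taken minus its WT mean. The KO differences of the genes found this way, their adjusted p values and the place of WT replicate 2 follow from the choice. They are no separate support. Nearest to Arntl were Cd37, a leukocyte tetraspanin gene (distance 0.13, difference 0.65, adjusted p = 0.00118), Gsap (0.14, difference 0.52) and the B cell scaffold gene Bank1 (0.15, difference 0.64). In each of these WT replicate 2 was the highest WT heart, as for Arntl, for example 6.63 against 6.08 to 6.27 for Cd37. Macrophage markers were higher in KO hearts (20 of 20) and, on average, highest among WT hearts in replicate 2. The part of these cells in the Arntl values was not tested. Nearest to Per3 were the homeobox gene Meis1 (distance 0.02, difference -0.40), the kinase gene Mast2 (0.03, difference -0.36) and the ceruloplasmin gene Cp (0.05, difference -0.38). WT replicate 2 lay within 0.07 of the WT mean in each of these, and was the lowest WT heart for Mast2 (9.17).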

How the data were processed

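The clock genes and the lists were chosen with earlier results of these data known. The deposited files hold linear intensities, as their values show, 27541 transcript clusters per array. Partek and RMA are named per the submitters' processing notes; their versions and roles, the probe annotation and the genome build are unknown here. The platform annotation pairs 21631 clusters with 1 symbol, 1317 with several and 4593 with none; Entrez IDs of 21544 matched RefSeq genes (GRCm38.p6), and 0 symbols were updated. For each gene the brightest cluster was kept, and the 4983 genes whose mean lay below the 25th percentile (log2 4.50) were dropped. Log2 intensity without pseudocount was fitted in limma 3.58.1 (R 4.3.3; lmFit, eBayes, two-sided), with Benjamini-Hochberg adjustment over all genes at 0.05. The fit was tested on simulated data. Motifs were searched in Python 3.11.15, and figures drawn with matplotlib 3.10.9. Named genes were the 9 clock genes, Hdac3, Thra, up to 4 changed members per list in order of p, and 3 like genes each for Arntl and Per3. Replicates are separate hearts per the labels, and their numbers did not pair them. The Clock and Npas2 pair planned for comparison could not be made, and batches of arrays were not analysed here. Alternatives were other normalisations, pseudocounts, filters, variance models, cluster means, a replicate block and leaving out each heart.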

Additional observations from a re-analysis of the deposited data

Results flagged for a closer look

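Each of 39 genes was examined for a heart far from the other 3 of its group by Dixon's test, which chance meets in about 1 of 20 groups. It was met in 3 of 78 groups. Egr1, an immediate early gene, was 7.73 in WT replicate 2 and 6.23 to 6.33 in the other WT hearts. Hdac3 was 8.50 in KO replicate 4 and 8.59 in the other KO hearts, a gap of little size beside the WT levels. Rorb was 4.62 in KO replicate 2 and 4.66 in the other KO hearts, close to the filter level. No clock gene met it, since for Arntl and Per2 the other WT hearts were themselves spread.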

How the results depend on the processing

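Over 17 alternatives the 9 clock genes gave 152 results, of which 142 kept both the direction and the side of the threshold, 8 newly passed and 2 changed sign. The sign changes were Cry2 without WT replicate 3 (0.0081) and Nr1d2 without WT replicate 4 (0.013); leaving out single hearts, Nr1d2 ranged from -0.058 to 0.013 and Cry2 from -0.14 to 0.0081. Array weights called 4 clock genes, and 2 to 3 were called when single hearts were left out, against 2 in the main fit. The number called among all genes ranged from 2871 to 3619 over the fits without a heart, and was 4529 with array weights. At the 50th percentile filter Arntl was left out as too dim. Correlations of same-numbered hearts' deviations were -0.04 to 0.08, and 1 of 4 WT hearts correlated best with its own number, so the numbers do not pair the hearts. With the replicate block 3382 genes passed, 2 of them clock genes. In sign-flip tests of the paired differences, the Per1 to Per3 ratio (0.53), the Per2 to Per3 ratio (0.71) and the Cry1 to Cry2 ratio (0.21) each had an exact p of 0.125, the smallest this design can give. With quantile normalisation these ratios rose by 0.50, 0.71 and 0.17, with adjusted p of 0.0714, 0.0714 and 0.0952 by the exact permutation test. Leaving out single hearts gave 0.47 to 0.61, 0.50 to 0.83 and 0.16 to 0.25 (adjusted p 0.0476 to 0.0952), and -0.14 to 0.037 for Nr1d1 to Nr1d2. The cause of these changes was not tested.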

Other observations

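Immediate early genes respond within minutes to growth factor and stress signals. Of 20 tested, 4 were higher in KO and 0 lower, with a median of 0.09. Over all genes 24.6% passed in either direction, 10.8% higher and 13.9% lower. The list's share in either direction is near that background, but all its calls were upward. Ier3 rose by 0.63 (SE 0.10), Btg2 by 0.55 (SE 0.13), Egr2 by 0.45 (SE 0.07) and Klf6 by 0.22 (SE 0.05), all past an adjusted p of 0.05 in limma. Without WT replicate 2, whose Egr1 level of 7.73 was above every other heart, 7 were higher and 0 lower. Of all genes 11.2% were then higher and 12.3% lower, 23.5% in either direction. Egr1 itself, named after its values were seen, differed by 0.16 (adjusted p = 0.75) with that heart and by 0.52 (adjusted p = 0.000274) without it.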
